A study of Glycine max with 4 samples.

Results

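Soybean chromosomes 1 and 11 were compared for the sites at which the protein encoded by GLYMA.07G038400 was recovered by chromatin immunoprecipitation and sequencing (ChIP-seq), in which protein-bound DNA is pulled down with an antibody and sequenced. The sites were all deposited peaks with the chromosome names Chr01 or Chr11, taken by position and not by fold or width. They numbered 3032 of 31090 peaks in ChIP replicate 1 and 2450 of 25502 peaks in ChIP replicate 2. Peaks of replicate 1 with an overlap of 1 bp or more with replicate 2 were counted as shared sites, which gave 2153 shared sites of 22386 in the series, 1062 on chromosome 1 and 1091 on chromosome 11. Over the whole series, 72.0% of the replicate 1 peaks were shared in this sense. The pair, a sparse and a dense chromosome, was picked with the density of sites already known. Contrasts and ranks in density, for whole chromosomes or by part, are therefore a description.

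Both ChIP replicates and their 2 inputs (total chromatin without antibody) came from embryos of the cultivar Williams 82 at the early maturation stage, taken out of seeds of 6 to 7 mm. The ChIP antibody recognised a peptide of that protein, amino acids 188 to 202. No sample lacking the protein was among the 4, so bound sites and DNA that the antibody pulls down by itself cannot be told apart. The labels call the replicates biological and do not say whether they came from separate plants, so their spread may be partly technical. The name GRF5 appears in the peak names with no explanation in the labels.

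As background, GRF usually stands for growth-regulating factor. These plant-specific transcription factors act together with GIF coactivators and promote cell proliferation in growing organs, and many of them are repressed by the microRNA miR396. Soybean descends from an ancient polyploid, and most of its genome is present in duplicated segments, among them arms of chromosomes 1 and 11. Its chromosomes have gene-rich arms towards the ends and a long, repeat-rich and gene-poor region around the centromere. The deposited peaks give no gene or centromere, so the arms were taken by length: the first 25% of each chromosome is called the start arm, the last 25% the end arm, and the 50% between them the central part.

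The 2 chromosomes carried nearly the same number of sites on very different lengths. Up to the end of its last peak, chromosome 1 spanned 56.8 Mb and was the second longest of the 20 chromosomes, and chromosome 11 spanned 34.6 Mb and was the shortest. Chromosome 1 had 1492 peaks in replicate 1 and 1213 in replicate 2, against 1540 and 1237 on chromosome 11. This gave 18.7 shared sites per Mb on chromosome 1 (95% exact Poisson interval 17.6 to 19.9) and 31.5 on chromosome 11 (29.7 to 33.5). Chromosome 1 ranked 18 of 20 in this density and chromosome 11 ranked 2. The other 18 chromosomes averaged 23.7 ± 4.77 shared sites per Mb (n = 18, SD between chromosomes). The ratio of chromosome 1 to chromosome 11 was 0.590 in replicate 1 and 0.598 in replicate 2, so it varied little between replicates. Peaks took up 1.15% of the length of chromosome 1 and 1.98% of that of chromosome 11 in replicate 1, and 0.771% and 1.31% in replicate 2.

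With 2 replicates, no exact sign-flip test over replicates can give a two-sided p below 0.5. Differences between chromosomes and arms are therefore given for each replicate and set beside the spread between replicates, with no p. Poisson and Wilson intervals cover counting error only, and neighbouring sites are not independent.

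The 4 arms differed among themselves more than the chromosome totals. The start arm of chromosome 11 was the densest, with 545 shared sites or 63.0 per Mb (57.8 to 68.5). The end arm of chromosome 1 held almost as many, 541, but on a longer arm, at 38.1 per Mb (34.96 to 41.5). The end arm of chromosome 11 had 285 shared sites at 32.9 per Mb (29.2 to 37.0), and the start arm of chromosome 1 had 334 at 23.5 per Mb (21.1 to 26.2). The central parts held 187 shared sites on chromosome 1, at 6.58 per Mb (5.67 to 7.60), and 261 on chromosome 11, at 15.1 per Mb (13.3 to 17.0). Each chromosome thus had a rich and a poor arm at opposite ends: 50.9% of the shared sites of chromosome 1 lay in its end arm, and 49.95% of those of chromosome 11 lay in its start arm.

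This order of the arms was the same in each replicate alone. Replicate 1 had 33.7 peaks per Mb in the start arm of chromosome 1, 8.87 in its central part and 53.6 in its end arm. Replicate 2 had 26.8, 7.32 and 44.0 in the same order. On chromosome 11 the start arm, central part and end arm had 89.5, 21.4 and 45.7 peaks per Mb in replicate 1, and 70.3, 17.3 and 38.1 in replicate 2. The start arm minus the end arm came to -18.6 ± 1.84 peaks per Mb on chromosome 1 and to 38.0 ± 8.25 on chromosome 11 (SD, n = 2 replicates), both several times the spread between replicates.

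**Figure D1:**
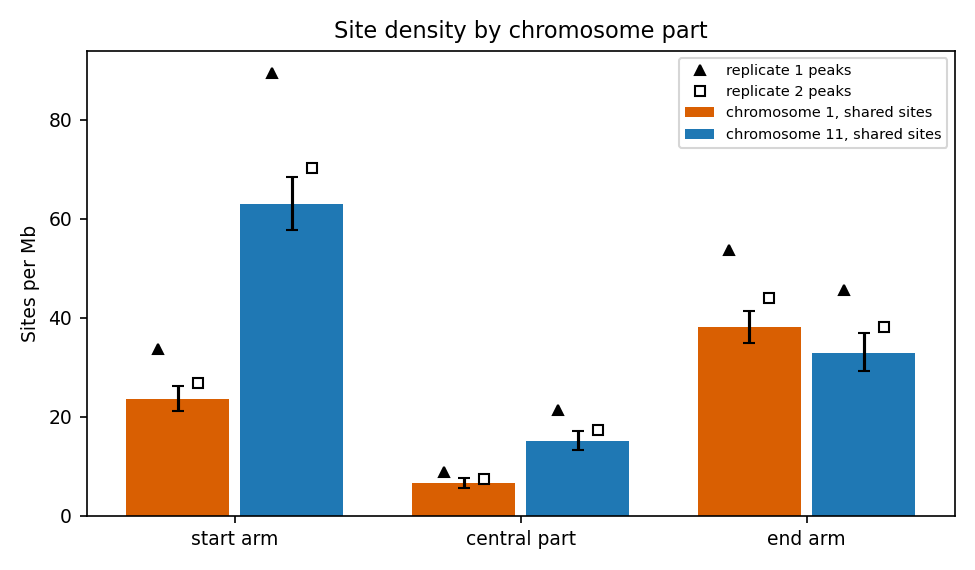
Sites per Mb (y axis) in the start arm, central part and end arm of chromosome 1 (orange) and chromosome 11 (blue). Bars are shared sites with 95% exact Poisson intervals, and triangles and squares are all peaks of replicate 1 and replicate 2. The start arm of chromosome 11 stands highest at 63.0 shared sites per Mb and the central part of chromosome 1 lowest at 6.58.

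Sites were denser in the arms than in the central part on both chromosomes. The arms together held 30.8 shared sites per Mb and the central part 6.58 on chromosome 1, a ratio of 4.68. On chromosome 11 they held 48.0 and 15.1, a ratio of 3.18. Chromosome 11 ranked 1 of 20 for the density of its arms and 4 of 20 for that of its central part. Chromosome 1 ranked 17 and 14. Since the pair was picked as sparse and dense, these ranks are a description. The ratio of arms to central part ranked 10 for chromosome 1 and 17 for chromosome 11, within the range of 0.839 to 11.4 of the other 18 chromosomes. Gene density and the alignability of the sequence also vary along chromosomes, and their part in these densities was not tested.

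The contrast in density was small when the ends were taken as the outermost 8 Mb and not as a share of the length, but it depended on that distance. The outermost 8 Mb at both ends, a distance chosen after the data had been seen, held 729 shared sites on chromosome 1 and 767 on chromosome 11. This is 45.6 per Mb (42.3 to 49.0) on chromosome 1 and 47.9 per Mb (44.6 to 51.5) on chromosome 11, a ratio of 0.950, with 0.965 in replicate 1 and 0.970 in replicate 2. These ends held 68.6% of the shared sites of chromosome 1 and 70.3% of those of chromosome 11. The rest of chromosome 1 spanned 40.8 Mb at 8.16 shared sites per Mb, against 18.6 Mb at 17.4 per Mb on chromosome 11. With this distance, the larger differences between the chromosomes were in the length and the density of what lay between the ends. The first 2 Mb held 45.0 shared sites per Mb at the start and 46.0 at the end of chromosome 1. On chromosome 11 they held 55.0 and 54.0. From 8 to 10 Mb the densities were 14.5 and 15.5 on chromosome 1, against 52.0 and 25.5 on chromosome 11.

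By this measure the rich arms also came closer, with 55.5 shared sites per Mb at the end of chromosome 1 (50.5 to 60.9) and 63.4 at the start of chromosome 11 (58.0 to 69.1). The ratio was 0.879 in replicate 1 and 0.912 in replicate 2. The poor arms had 35.6 per Mb at the start of chromosome 1 (31.6 to 40.0) and 32.5 at the end of chromosome 11 (28.7 to 36.7). Their ratio was 1.13 in replicate 1 and 1.08 in replicate 2, and the intervals of the shared densities overlapped for both pairs of arms. Which arms of the 2 chromosomes are duplicates of each other was not analysed here.

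In bins of 2 Mb, the density from the end of chromosome 1 went through 46.0, 64.0, 66.5 and 45.5 shared sites per Mb over the first 8 Mb and was 15.5 in the next bin. From the start of chromosome 11 it went through 55.0, 75.5, 77.0 and 46.0, and it stayed high for longer, with 52.0 and 42.5 in the next 2 bins before reaching 8.00. The poor arms were densest close to their ends. The start of chromosome 1 had 45.0 and 49.0 in its first 2 bins and 15.5 in the fourth, and the end of chromosome 11 had 54.0 and 46.5 and then 10.0. In 3 of the 4 profiles the highest density lay 2 to 6 Mb from the end and not at the very end, the exception being the end of chromosome 11. In these 3 the intervals of the first and the highest bin overlapped. The overlap was wide at the start of chromosome 1 (36.2 to 55.3 and 39.8 to 59.7). It was narrow at the end of chromosome 1 (37.1 to 56.4 and 55.7 to 78.8) and the start of chromosome 11 (45.2 to 66.3 and 65.3 to 90.2).

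**Figure D2:**
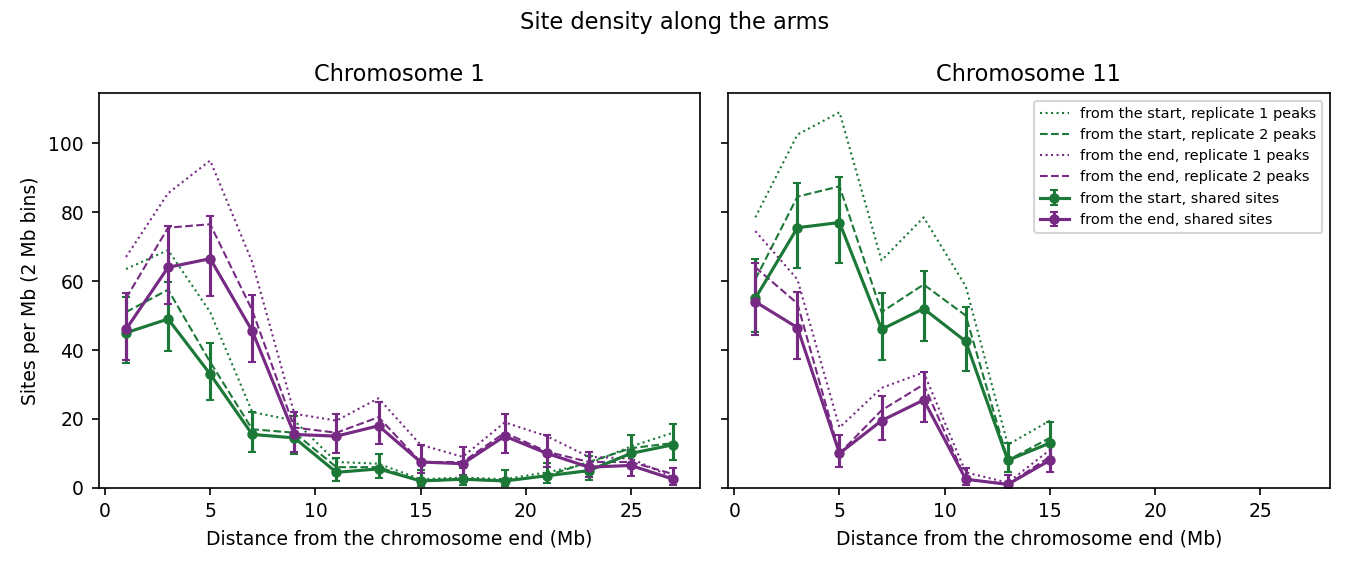
Sites per Mb in bins of 2 Mb (y axis) against distance from the chromosome end in Mb (x axis), up to the midpoint of chromosome 1 (left) and chromosome 11 (right). Solid lines with 95% exact Poisson intervals are shared sites, dotted and dashed lines are all peaks of replicates 1 and 2. The profile from the start of chromosome 11 stays above 40 shared sites per Mb over its first 6 bins, whereas the profile from the end of chromosome 1 drops to 15.5 after 8 Mb.

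Within the sparse interior, sites were not evenly spread. On chromosome 1, 22 to 28 Mb held 55 shared sites (9.17 per Mb), while the 8 Mb before it, 14 to 22 Mb, held 20 (2.50 per Mb). On chromosome 11, 20 to 24 Mb held 6 shared sites (1.50 per Mb). The choice of these intervals was made with the values known. The longest stretch without a shared site on chromosome 1 was 1.78 Mb, between summits at 14774531 and 16558322, with 1 peak in each replicate inside it. The next were 1.47 Mb, from 20977664 to 22443959, and 1.34 Mb, from 28395137 to 29735445. On chromosome 11 the longest were adjacent, 1.65 Mb from 21376059 to 23025476 and 1.36 Mb from there to 24382738. The next, of 1.29 Mb from 28429865 to 29722841, lay inside the end arm and held no peak of either replicate. Stretches of over 500 kb numbered 17 on chromosome 1 and 7 on chromosome 11 and made up 27.2% and 24.6% of the lengths.

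The densest windows of 1 Mb lay in the rich arms. On chromosome 1 they were 52 to 53 Mb with 70 shared sites and 51 to 52 and 54 to 55 Mb with 66 each. On chromosome 11 they were 4 to 5 Mb with 88, 3 to 4 Mb with 82 and 2 to 3 Mb with 69. Windows with at least 50 shared sites numbered 7 of the 56 complete windows of chromosome 1 and 10 of the 34 of chromosome 11. Windows with fewer than 5 numbered 15 and 6. The median window held 11 shared sites on chromosome 1 and 23.5 on chromosome 11.

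Among shared sites, the share with a close neighbour varied little between parts of very different density, but among all peaks of replicate 1 it was higher where peaks were denser. On chromosome 1, 29.4% of the shared sites had another one within 2 kb (95% Wilson interval 26.7 to 32.2), and on chromosome 11 30.1% did (27.4 to 32.9), where all chromosomes gave 30.0%. On chromosome 1 the share was 29.0% in the start arm, 29.4% in the central part (23.3 to 36.3) and 29.6% in the end arm. On chromosome 11 it was 31.4% in the start arm (27.6 to 35.4), 29.1% in the central part and 28.4% in the end arm. These 6 intervals overlapped, although the density of shared sites ran from 6.58 to 63.0 per Mb.

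The replicates differed in this respect when all their peaks were taken. In replicate 1 the share with a neighbour within 2 kb was 35.1%, 30.2% and 38.4% in the start arm, central part and end arm of chromosome 1, and 43.4%, 32.6% and 35.7% in those of chromosome 11. It followed the order of peak density over the 6 parts, but no intervals are given and some steps were small, such as 35.1% to 35.7%. In replicate 2 it was 32.4%, 31.7% and 36.0% on chromosome 1, and 32.6%, 33.1% and 33.0% on chromosome 11, with no such order. Of all peaks of replicate 1, 35.9% on chromosome 1 and 38.8% on chromosome 11 had a neighbour within 2 kb, and of those of replicate 2, 34.1% and 32.8%. The difference between the chromosomes changed sign between replicates.

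At other distances the shared sites of the parts were further apart than at 2 kb. The share with a neighbour within 1 kb was 5.39% in the start arm of chromosome 1 and 13.4% in that of chromosome 11. The share with a neighbour within 10 kb was 47.6% in the central part of chromosome 1 and 63.6% in that of chromosome 11, and it reached 79.3% in the start arm of chromosome 11. Shared sites with no other within 50 kb made up 24.1% of the central part of chromosome 1 and 11.1% of that of chromosome 11, against 0.550% in the start arm of chromosome 11. Median gaps between neighbouring shared sites were 53.1 kb in the central part of chromosome 1 and 14.4 kb in that of chromosome 11, with means of 149 and 66.3 kb. In the start arm of chromosome 11 the median was 7.49 kb and the mean 15.7 kb.

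**Figure D3:**
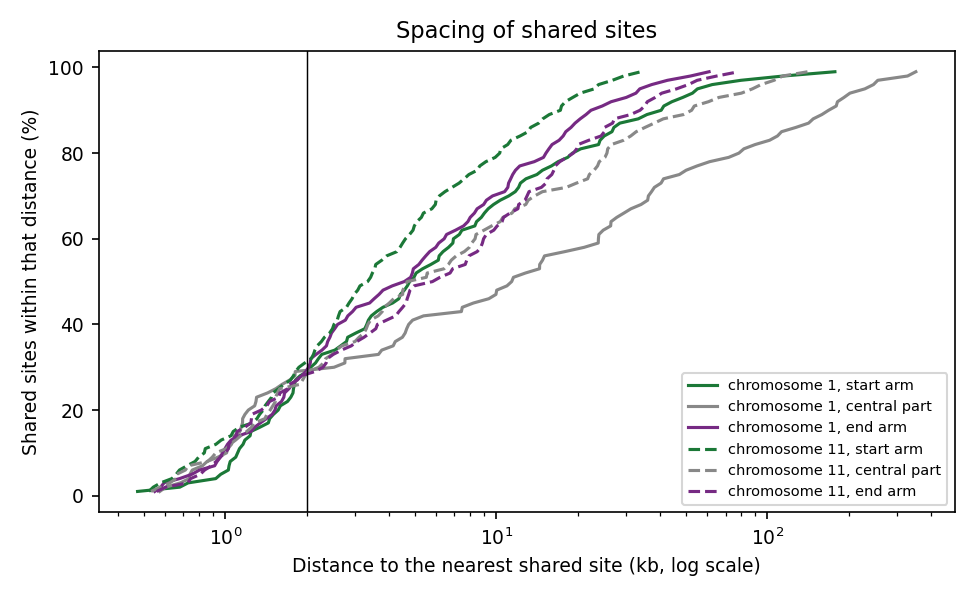
Share of shared sites (y axis, %) whose nearest shared site lies within the distance on the x axis (kb, log scale), for the 3 parts of chromosome 1 (solid) and chromosome 11 (dashed). The vertical line marks 2 kb, where the 6 curves lie between 28.4% and 31.4%. They lie further apart at longer distances, with the central part of chromosome 1 lowest at 10 kb, at 47.6%.

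Runs of shared sites spaced by at most 2 kb numbered 141 on chromosome 1 and 145 on chromosome 11. Most were pairs, 113 and 116. By definition, all runs together hold the shared sites with a neighbour within 2 kb given above, 29.4% on chromosome 1 and 30.1% on chromosome 11. Counts of runs are not given for the other chromosomes. Runs longer than a pair but with fewer than 4 sites numbered 26 on chromosome 1 and 21 on chromosome 11. Runs of at least 4 sites went the other way, with 2 on chromosome 1 and 8 on chromosome 11. On chromosome 1 these were 4 sites in 2.39 kb at 2567380 to 2569766 and 4 in 4.20 kb at 43933344 to 43937539. The longest on chromosome 11 held 5 sites in 5.28 kb at 30659168 to 30664452, in the poor arm, with lower-of-2 folds from 4.59 to 19.1.

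The strength of the sites, unlike their density, was close on the 2 chromosomes. Strength is the fold enrichment of ChIP over the background of the peak caller, as the authors' value for each peak. The median fold of shared sites was 7.88 on chromosome 1 and 8.01 on chromosome 11 in replicate 1, and 6.98 and 6.92 in replicate 2. For shared sites the sign of the difference was not the same in the replicates, and the difference, -0.03 ± 0.13 (SD, n = 2), was within their spread. Over all peaks chromosome 1 was slightly higher in both replicates. Those medians were 6.36 and 6.29 in replicate 1, and 6.52 and 6.43 in replicate 2. The median of the lower of the 2 folds was 6.42 on chromosome 1 and 6.22 on chromosome 11, both inside the range of 6.11 to 6.57 of the other 18 chromosomes. Lower-of-2 folds above 20 were reached by 38 shared sites of chromosome 1 (3.58%, 2.62 to 4.87) and 43 of chromosome 11 (3.94%, 2.94 to 5.27), close to the 4.07% of all shared sites.

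Median folds also varied little between arms. In replicate 1 they were 7.59, 8.15 and 7.96 in the start arm, central part and end arm of chromosome 1, and 8.10, 7.45 and 8.15 in those of chromosome 11. In replicate 2 they were 6.89, 7.56 and 6.92 on chromosome 1 and 6.92, 7.11 and 6.83 on chromosome 11. The central parts were the only pair in which chromosome 1 was higher in both replicates, by 0.58 ± 0.18 fold units (SD, n = 2). Since the quartiles there ran from 6.07 to 11.4 on chromosome 1 and from 5.47 to 12.4 on chromosome 11 in replicate 1, this is a small part of the spread among sites. Shared sites with no other within 50 kb had lower-of-2 folds with a median of 5.74 on chromosome 1 (81 sites) and 6.08 on chromosome 11 (44 sites). Those with a neighbour within 2 kb had 6.75 (312 sites) and 6.41 (328 sites). The order was not the same in each replicate. In replicate 1 the isolated sites had lower median folds, 7.05 against 8.75 on chromosome 1 and 7.40 against 8.51 on chromosome 11. In replicate 2 they were lower on chromosome 1, 6.96 against 7.36, but higher on chromosome 11, 7.70 against 6.97.

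Widths differed slightly between the chromosomes. The median width of shared sites was 437 bp on chromosome 1 and 453 bp on chromosome 11 in replicate 1, and 334.5 and 340 bp for their replicate 2 counterparts. The difference was -10.8 ± 7.42 bp (SD, n = 2). Chromosome 11 ranked 2 of 20 in replicate 1 and 5 of 20 in replicate 2, with ties counted at the higher rank. By arm, widths in replicate 1 ran from 427 bp in the central part of chromosome 1 to 459 bp in the start arm of chromosome 11. Sites at least 800 bp wide made up 7.63% of the shared sites of chromosome 1 and 8.34% of those of chromosome 11. In the central parts the shares were 2.67% (5 sites) and 7.28% (19 sites), against 9.61% and 9.72% in the rich arms. In the poor arms they were 7.19% on chromosome 1 and 6.67% on chromosome 11, so the central part was lowest on chromosome 1 but not on chromosome 11. No intervals or share over all chromosomes are given for this width, and the lowest share rests on 5 sites. Wider sites were stronger, with Spearman's rho of width and fold at 0.71 on chromosome 1 and 0.68 on chromosome 11 in replicate 1. These are correlations across sites of 1 library, where width and fold come from the same reads.

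**Figure D4:**
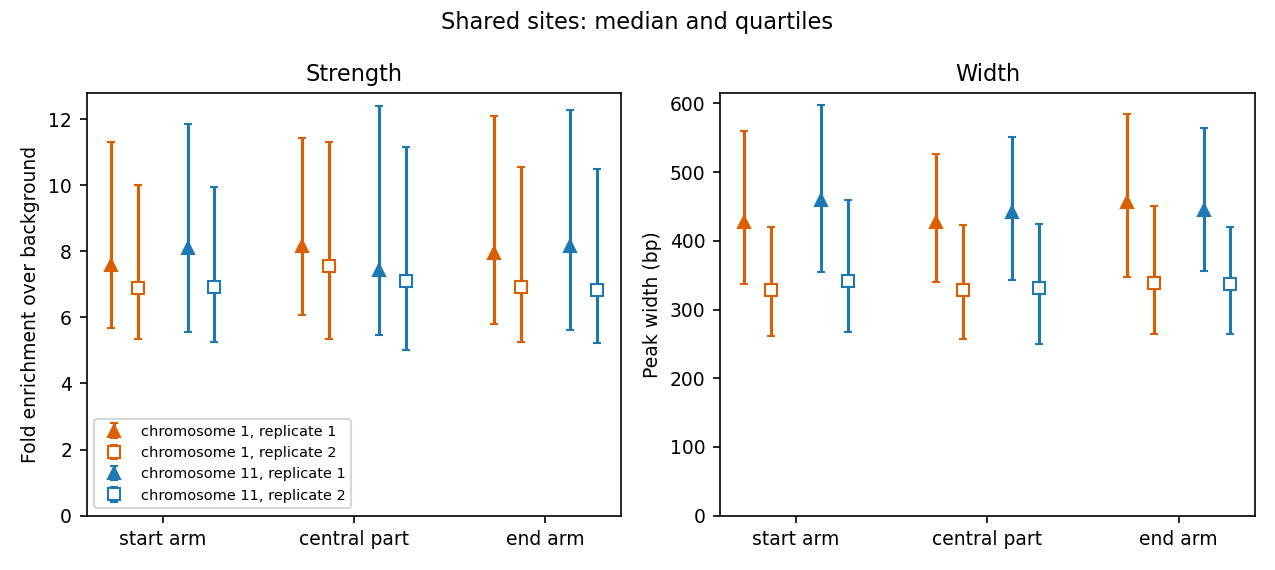
Fold enrichment (left) and peak width in bp (right) of shared sites in the 3 parts of chromosome 1 (orange) and chromosome 11 (blue). Triangles are medians in replicate 1, open squares medians in replicate 2, and bars span the quartiles. All 12 median folds lie between 6.83 and 8.15, and replicate 2 peaks are narrower than replicate 1 peaks in every part.

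Recovery in the other replicate was also close. Of the replicate 1 peaks, 71.2% on chromosome 1 (1062 of 1492, Wilson interval 68.8 to 73.4) and 70.8% on chromosome 11 (1091 of 1540, 68.5 to 73.1) overlapped a replicate 2 peak, where all peaks of the series gave 72.0%. Of the replicate 2 peaks, 90.3% on chromosome 1 (88.5 to 91.8) and 90.3% on chromosome 11 (88.5 to 91.8) overlapped a replicate 1 peak, where all peaks gave 89.8%. Shares by arm in replicate 1 lay between 69.7% and 74.2%, with overlapping intervals. The smallest overlap that made a site shared was 122 bp on chromosome 1 and 99 bp on chromosome 11, so no call rested on a few bp. The nearest replicate 1 peaks without a counterpart lay 27 bp from a replicate 2 peak on chromosome 1 and 141 bp on chromosome 11.

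Recovery followed strength in the same way on both chromosomes. Replicate 1 peaks of up to 4-fold were found again in 32.6% of cases on chromosome 1 (26.2 to 39.7) and in 36.2% on chromosome 11 (29.6 to 43.4). Between 6-fold and 10-fold it was 87.6% and 85.9%. Above 20-fold all 75 peaks of chromosome 1 and all 76 of chromosome 11 had a counterpart, which allows a lower Wilson bound of 95.1% and 95.2%. Replicate 1 peaks of the other 18 chromosomes gave 35.8%, 87.5% and 100% (1496 of 1496) in these classes, so the rise was not particular to this pair. Replicate 1 peaks with a counterpart had a median fold of 7.88 on chromosome 1 and 8.01 on chromosome 11, and those without one had 4.61 and 4.62. The strongest peak without a counterpart on chromosome 1 was 10.5-fold, at 49827582 to 49828212 in replicate 1, and rested on 42 fragments (95% exact Poisson interval 30.3 to 56.8). On chromosome 11 it was 11.3-fold, at 7863626 to 7864004 in replicate 1, with 50 fragments (37.1 to 65.9). In replicate 2 these were a 10.1-fold peak at 23402684 to 23403000 on chromosome 1 and a 6.94-fold peak at 33905422 to 33905675 on chromosome 11.

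**Figure D5:**
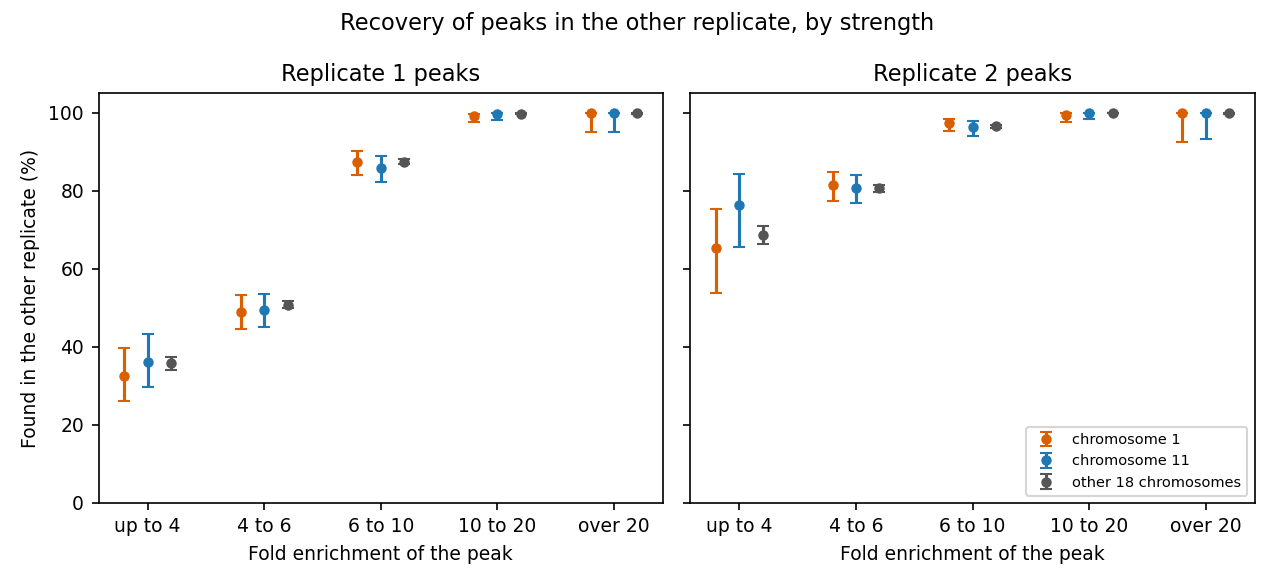
Share of peaks found in the other replicate (y axis, %) by fold enrichment of the peak (x axis, 5 classes), for replicate 1 (left) and replicate 2 (right). Points with 95% Wilson intervals are chromosome 1 (orange), chromosome 11 (blue) and the other 18 chromosomes (grey). The chromosomes follow the same rise, from 32.6% and 36.2% for the weakest replicate 1 peaks of chromosomes 1 and 11 to 100% above 20-fold.

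Folds of the same site in the replicates were related to a similar degree on both chromosomes. Across shared sites, Spearman's rho was 0.74 on chromosome 1 and 0.75 on chromosome 11, and the ratio of the folds was at most 2 in either direction at 95.4% and 95.1% of the sites. Sites are not replicates, so the rho is a description across sites. Summits of the paired peaks lay a median of 30 bp apart on chromosome 1 and 32 bp on chromosome 11. A replicate 1 peak overlapped at least 2 replicate 2 peaks at 32 of the 1062 shared sites of chromosome 1 and 25 of the 1091 of chromosome 11. The share over all chromosomes is not given, so whether these counts are usual cannot be told.

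The strongest sites of chromosome 1 included several in its sparse interior. Of its 10 shared sites with the highest lower fold of the replicates, 2 lay in the start arm, 3 in the central part and 5 in the end arm. The first was in the end arm at 50871501 to 50872281, with folds of 54.4 in replicate 1 and 51.4 in replicate 2 (52.9 ± 2.09, SD, n = 2). The summits were covered by 250 fragments (95% exact Poisson interval 220 to 283) and 198 fragments (171 to 228). By lower-of-2 fold it ranked 6 among the shared sites of all chromosomes, and the next by that measure, at 1064036 to 1064894 in the start arm, had folds of 35.7 and 39.6. The site at 43935810 to 43936594, with folds of 35.4 and 36.7, belonged to the run of 4 described above.

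In the central part of chromosome 1, the site at 36876978 to 36877937 had folds of 37.0 and 34.8, with summits 91 bp apart. The site at 20346230 to 20346829 had 34.4 and 48.7, the widest spread of these 10 (41.6 ± 10.2, SD, n = 2), although its summits lay 1 bp apart. Its replicate 2 fold was close to that of the first site, and the fragment intervals in that replicate, 144 to 196 and 171 to 228, overlapped. Its background at the summit was 5.28 fragments in replicate 1 and 2.49 in replicate 2, and its nearest shared site was 38.3 kb away. The site at 29734109 to 29735788, 1680 bp wide, had folds of 33.6 and 29.9, but its summits lay 758 bp apart. Its replicate 1 summit bordered the stretch of 1.34 Mb without a shared site.

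On chromosome 11, 4 of the 10 strongest sites lay in the central part, among them the first 3, with 4 in the start arm and 2 in the end arm. The first, at 9929292 to 9929947, had folds of 43.1 in replicate 1 and 46.9 in replicate 2 (45.0 ± 2.72, SD, n = 2), on 207 fragments (180 to 237) and 156 (132 to 182). It lay 9.93 Mb from the start, within the dense stretch that reached past the start arm. The second, at 24677215 to 24678057, had 48.2 and 37.6, and the third, at 15581270 to 15582055, had 46.3 and 34.3. The sixth, at 24520581 to 24521251, had 31.7 and 34.4, and its nearest shared site was 87.9 kb away. The SD between replicates averaged 3.44 over the 10 sites of chromosome 1 and 4.37 over those of chromosome 11. Most neighbouring ranks differed by less than this. Sites above 20-fold as a whole took a share of the central part similar to elsewhere, 3.21% on chromosome 1 (6 sites, 1.48 to 6.82) and 3.45% on chromosome 11 (9 sites, 1.82 to 6.42).

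The depth behind the sites was similar on the 2 chromosomes. The median peak rested on 33 overlapping fragments at its summit on chromosome 1 and 34 on chromosome 11 in replicate 1, and on 26 on each in replicate 2. At least 13 fragments lay behind each of these peaks in replicate 1, and at least 11 in replicate 2. The median background was 4.19 fragments on chromosome 1 and 4.30 on chromosome 11 in replicate 1, and 2.98 on each in replicate 2. Replicate 2 held 8 peaks on chromosome 1 and 2 on chromosome 11 with a background above 20 fragments. The other 18 chromosomes held 1 to 16 such peaks each. On chromosomes 1 and 11 their folds lay between 1.58 and 2.14. None of these overlapped a replicate 1 peak, and replicate 1 held no such peak on either chromosome. Positions are 1-based on the authors' assembly, and the sources used here do not name it. Genes and sequences at the sites were not analysed here.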

How the data were processed

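Each ChIP replicate came with a list of peaks, so peaks were called per replicate. Input reads contribute only as the controls of that calling. Per the submitters' processing notes, Bowtie 0.12.7 and MACS2 were the tools. The authors deposited, in narrowPeak column order, a score, the fold (a linear ratio of ChIP to background), −log10 p-values and −log10 q-values, and the summit. This deposited score is 10 times −log10 q without its decimals in 99.997% of replicate 1 peaks and 99.96% of replicate 2 peaks. A q of 0.01 stands in the replicate 2 peak names.

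Chromosome length was the end of the last peak of either list. The counterpart of a shared site was the overlapping replicate 2 peak with the nearest summit, and its position was the replicate 1 summit. Fragments at the summit (k) and background (λ) were recovered from (k + 1)/(λ + 1) = fold and the Poisson tail of the p-value. The largest departure of k from a whole number was 0.0721% of a step (replicate 1) and 0.581% (replicate 2). The method assumes the formulas MACS2 uses. Reads without molecular identifiers are not independent molecules. The named sites are the 10 of highest lower-of-2 fold on each chromosome, the 3 densest windows, the 3 longest stretches, the longest runs and the strongest peaks without a counterpart. Members, rules and tests were chosen with earlier results of these data known. Overlap, pileup recovery and spacing were checked on simulated data. Python 3.11.15, numpy 2.4.6, pandas 2.3.3, scipy 1.17.1 and matplotlib 3.10.9 were used. The gene table at hand is of another assembly and was not used.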

Additional observations from a re-analysis of the deposited data

How the results depend on the processing

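Spread here is the SD between the values that all peaks of each replicate alone give (for recovery, the shares in either direction). For fold and width it was 0.00903 and 1.41 bp, less than the 0.13 and 7.42 bp of shared sites in the report. Of 57 alternatives over 7 results, 31 lay within that SD of the reported value. The sign changed in 4, of which 3 concerned the neighbour share, whose difference was itself within the SD. Removing peaks of background over 20 or using one-to-one pairs moved none by more than that SD, and these and the 8 Mb ends were chosen after seeing the data. The chromosome 1 to 11 density ratio of 0.593 became 0.600 with 50% reciprocal overlap, 0.606 with summits within 100 bp, 0.468 for medians of 1 Mb windows and 0.950 in the outermost 8 Mb; replicates alone gave 0.590 to 0.598. Arms minus central density was 24.2 per Mb on chromosome 1. It was 15.6 with −log10 q of at least 10, 36.3 with outer 15%, 16.6 with outer 35% and 37.4 with 8 Mb ends, and 28.1 to 34.8 in replicates alone. On chromosome 11 it was 32.9, with 23.0 at −log10 q of at least 10 and 36.9 to 46.1 in replicates alone. The lower-of-2 fold difference of 0.19 (chromosome 1 minus 11) became 0.0663 with reciprocal overlap, 0.18 with summits, -0.0485 at −log10 q of at least 10, and 0.079 to 0.0917 in replicates alone. The neighbour share difference of -0.69 points became 2.43 at −log10 q of at least 10, 0.243 with summits within 100 bp and -5.80 within 5 kb, and replicates alone gave -2.91 to 1.31. The width difference of -16 bp became -12 with reciprocal overlap, -12 with summits, -12.5 at −log10 q of at least 10, and -5 to -3 in replicates alone. The recovery difference of 0.335 points became 1.02 with reciprocal overlap, 1.73 with summits and 1.06 at −log10 q of at least 10. Stricter q and single lists change the number of sites by construction; for the other changes the cause was not tested. No paired analysis was possible because no test compared ChIP with input, the groups that share replicate numbers, and this refers to those groups only. Differences between chromosomes and between arms were taken within each replicate, so they are paired by replicate.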
